A study of Homo sapiens with 27 samples.

Results

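The genes described here are 9 known targets of the progesterone and glucocorticoid receptors, taken from the count table by their symbols: FKBP5, HSD11B2, TSC22D3, KLF9, ZBTB16, PER1, SGK1, TNFSF11 and WNT4. They make up 9 of the 26485 genes that the table lists. All 4 lines were made from T47D, a luminal breast cancer cell line, as pools infected with lentivirus and kept under puromycin. The control pool carried the empty pHAGE vector, and each other pool carried 1 truncated form of GATA3, a zinc finger factor of luminal cells, fused to a Ty1 tag: the Splice del, C321fs or A333fs mutant. The mutants were expressed on top of the GATA3 that T47D cells make themselves. RNA was sequenced from 3 libraries of each line, which the labels number as replicates without saying whether they came from separate cultures, so p-values measure the spread between these libraries. Each mutant is 1 pool, and whatever else sets a pool apart enters every comparison with it and cannot be told apart from the mutant. No source used here names an added progestin or glucocorticoid. The labels and the methods give different media for the cells, both with fetal bovine serum.

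Progesterone and glucocorticoid receptors are close relatives that bind hormone and recognize the same DNA element, an inverted repeat of a short half-site. Before hormone binds, Hsp90 and its co-chaperones hold the receptor, and some target genes feed back on this step or on the supply of hormone. In the breast, luminal cells with progesterone receptor answer the hormone in part through secreted factors, of which RANKL (TNFSF11) and WNT4 are the best known, while neighboring cells carry the receptors for them.

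The libraries held 27872208 to 36788024 counted fragments, and 14789 genes, 7 of the 9 receptor targets among them, had enough counts to be tested. Levels are CPM (counts scaled to a common library total) scaled by TMM, edgeR's factor for library composition, which was 0.884 to 0.943 in control and 1.01 to 1.05 in mutant libraries. A gene was called when the adjusted p of edgeR's quasi-likelihood test was below 0.01 and the fold change exceeded 1.5. Luminal markers were abundant in all lines, with KRT8 at 1570 to 3740 and EPCAM at 114 to 165 RPKM (CPM per kilobase of exon). Of 10 such markers, 1 was called up and 3 down with Splice del, 0 and 2 with C321fs, and 1 and 1 with A333fs. Beside these, 10.7%, 6.88% and 12.3% of all genes were called. With the trend described below removed, the counts were 1 and 2, 0 and 1, and 1 and 0. KRT8, KRT18, KRT19, FOXA1 and GATA3 lay below control in all 9 mutant libraries (19.3% of all genes) and EPCAM above (15.7%). The other luminal markers overlapped control. In mutant lines the GATA3 count can hold fragments of the introduced mutant beside those of the cells' own gene, and these were not told apart. By western blot, the paper reports similar levels of wild-type GATA3 protein in mutant and control lines. PTPRC of leukocytes was at 0, and KRT5, PDGFRB, PECAM1, VWF and CD3E stayed at or below 0.0422 RPKM. CD68, another immune marker of the list, is not among these. It was not called in any mutant line against control, and its mutant and control libraries overlapped. The 10 luminal markers summed to 19100 to 22400 CPM in control libraries and to 12900 to 15700 in mutant libraries, and 12 markers of other cell types to 68.4 to 84.0 and 54.6 to 70.1 CPM, with 6 of the 12 tested. Of these 6, 1 was called down with Splice del, 1 up and 1 down with C321fs, and 2 up and 2 down with A333fs. These counts stand beside the same shares of all genes (10.7%, 6.88% and 12.3%). COL3A1 of fibroblasts was called down in all 3 lines (log2 fold changes -1.09, -1.03 and -1.65), COL1A1 down in A333fs cells (-0.83) and TP63 up in C321fs cells (1.34). The basal keratin gene KRT14 (5.25, from 0.0113 to 0.569 CPM) and ACTA2 of smooth muscle (0.62) were called up in A333fs cells. The calls of COL1A1 and TP63 were lost with the trend described next removed (-0.46 and 1.13). That of TP63 was also lost in each of 6 fits without 1 library (1.19 to 1.47), and that of ACTA2 in 1 of 6. The part of these shifts in the results was not tested. One technical property moved with the groups: across genes, the log2 fold change against control fell with the GC content of the exons, with Spearman's rho of -0.51 (Splice del), -0.55 (C321fs) and -0.67 (A333fs). The control libraries differ from all mutant libraries in this trend, so it cannot be told apart from the mutants, and values with the trend over GC content and exon length removed are given for the receptor targets and wherever a call named below was lost with it. The trend also separated A333fs from the other mutants (rho of -0.31 against Splice del and -0.30 against C321fs cells).

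The start of KLF9 and WNT4 is shown because these are the genes that were called. A start of FKBP5 is shown because it holds letters of both motifs searched. A start of TNFSF11 is shown because it holds a GATA match although no fragment was counted on the gene. The stretches run from 100 bases before to 20 bases after a RefSeq start (build GRCh38.p14), 5′ to 3′ on the strand of the gene. Capitals mark AGAACA, the half-site of the hormone receptors, and the GATA letters, which are AGATAA and AGATAG and the same with T as the first base, each searched on both strands.
KLF9 (chr9:70414638-70414757, minus strand): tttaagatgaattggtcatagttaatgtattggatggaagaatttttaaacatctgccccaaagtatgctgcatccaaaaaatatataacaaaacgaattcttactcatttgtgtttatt
WNT4 (chr1:22143078-22143197, minus strand): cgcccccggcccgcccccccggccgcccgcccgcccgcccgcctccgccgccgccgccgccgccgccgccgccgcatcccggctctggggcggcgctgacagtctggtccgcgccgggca
FKBP5 (chr6:35728564-35728683, minus strand): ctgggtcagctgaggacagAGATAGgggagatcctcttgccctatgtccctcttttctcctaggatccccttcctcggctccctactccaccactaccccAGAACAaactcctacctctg
TNFSF11 (chr13:42562636-42562755, plus strand): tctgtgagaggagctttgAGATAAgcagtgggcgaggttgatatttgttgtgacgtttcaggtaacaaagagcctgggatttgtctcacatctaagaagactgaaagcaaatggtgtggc

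These 4 stretches differ widely in composition, with a GC content of 28.3% at KLF9, 45.0% at TNFSF11, 55.8% at FKBP5 and 90.0% at WNT4. RefSeq windows of 300 bases (250 before to 50 after a start) were matched for 7 of the 9 genes, with 14 windows in all. The half-site lay in 2 of these 14 windows, at the first base of an FKBP5 transcript and 6 bases into one of SGK1, and in 14.8% of all 35116 windows. A GATA match lay in 3 of the 14, starting 81 bases before the same start of FKBP5, 82 before a start of TNFSF11 and 232 before one of SGK1, against 25% of all windows. Another window of FKBP5 (76.0% GC) and another of TNFSF11 (65.7% GC) held neither motif. The whole element, with a pair of half-sites facing each other across a gap, was in none of the 14 and in 1 of all windows. Such matches describe letters in short windows and no binding was measured here.

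Measured per exon length, TSC22D3 and FKBP5 were the most abundant of the receptor targets in every line. In control cells TSC22D3 stood at 16.2 ± 1.12 RPKM (SD, n = 3) and FKBP5 at 14.2 ± 0.524, and their libraries did not overlap. WNT4 (5.15 ± 0.298) and HSD11B2 (5.11 ± 0.332) followed and overlapped each other. PER1 came next at 2.84 ± 0.417 and KLF9 at 1.32 ± 0.0782, without overlap. SGK1 was low at 0.186 ± 0.0206 RPKM, and ZBTB16 and TNFSF11 had no fragment in any control library. In all 3 mutant lines WNT4 lay below HSD11B2 without overlap, at 2.76 ± 0.123 against 4.36 ± 0.201 RPKM in A333fs cells. KLF9 lay above PER1 in Splice del cells (2.66 ± 0.0489 against 2.43 ± 0.143) and overlapped it in C321fs and A333fs cells.

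**Figure D1:**
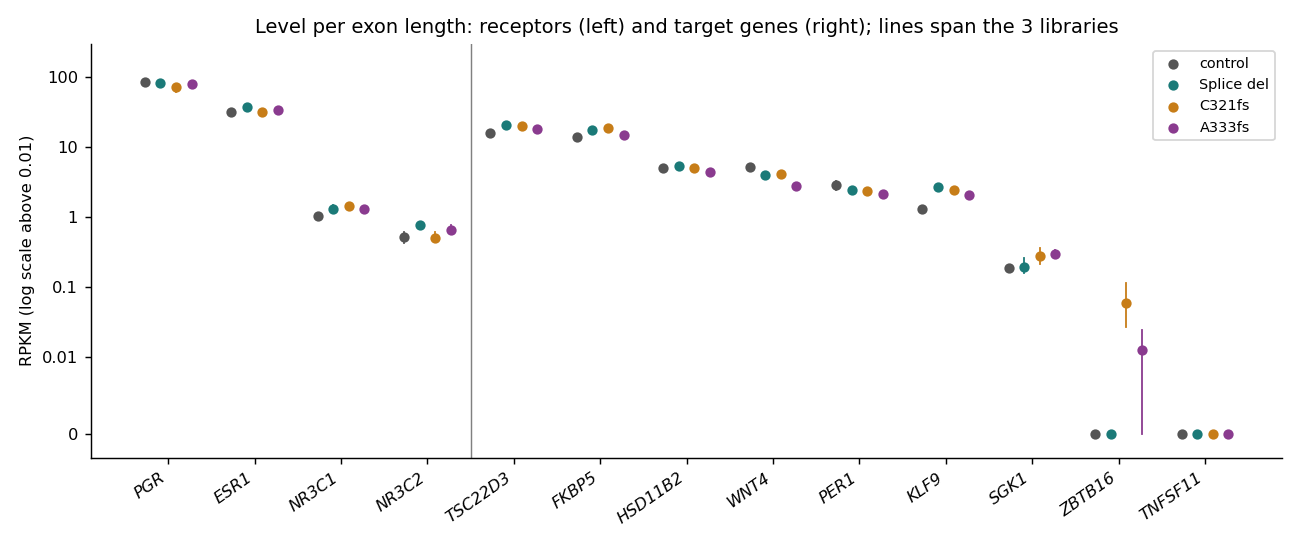
Level per exon length (RPKM, vertical axis, log scale above 0.01) of 4 steroid receptors and the 9 target genes in the 4 lines. Points are means of 3 libraries and lines span them; PGR lies near 80 RPKM, TSC22D3 and FKBP5 lie between 14 and 21, and TNFSF11 is at 0 in every line.

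KLF9 rose in all 3 mutant lines and WNT4 fell in A333fs cells, and these were the calls against control. In Splice del cells 1 of the 7 tested genes was called, against 10.7% of all tested genes, and in C321fs cells 1 of 7, against 6.88%. In A333fs cells 2 of 7 were called, 1 up and 1 down, against 12.3% of all genes. With the adjusted p alone and no limit on the fold change, 4 of 7 passed with Splice del, 4 with C321fs and 3 with A333fs, where 41.1%, 36.8% and 47.4% of all genes passed. The tested libraries of mutant and control did not overlap in 4, 5 and 6 of the 7 genes, against 62.9%, 54.1% and 65.5% of all genes. Any difference among the 4 lines passed an adjusted p of 0.01 for 4 of the 7 genes, KLF9, WNT4, FKBP5 and TSC22D3, against 56.2% of all genes. The 3 comparisons share the control libraries, and with 7 genes a single call moves a share widely, so the genes are described one by one. In bulk RNA, fewer cells with a transcript and less of it per cell cannot be told apart.

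**Figure D2:**
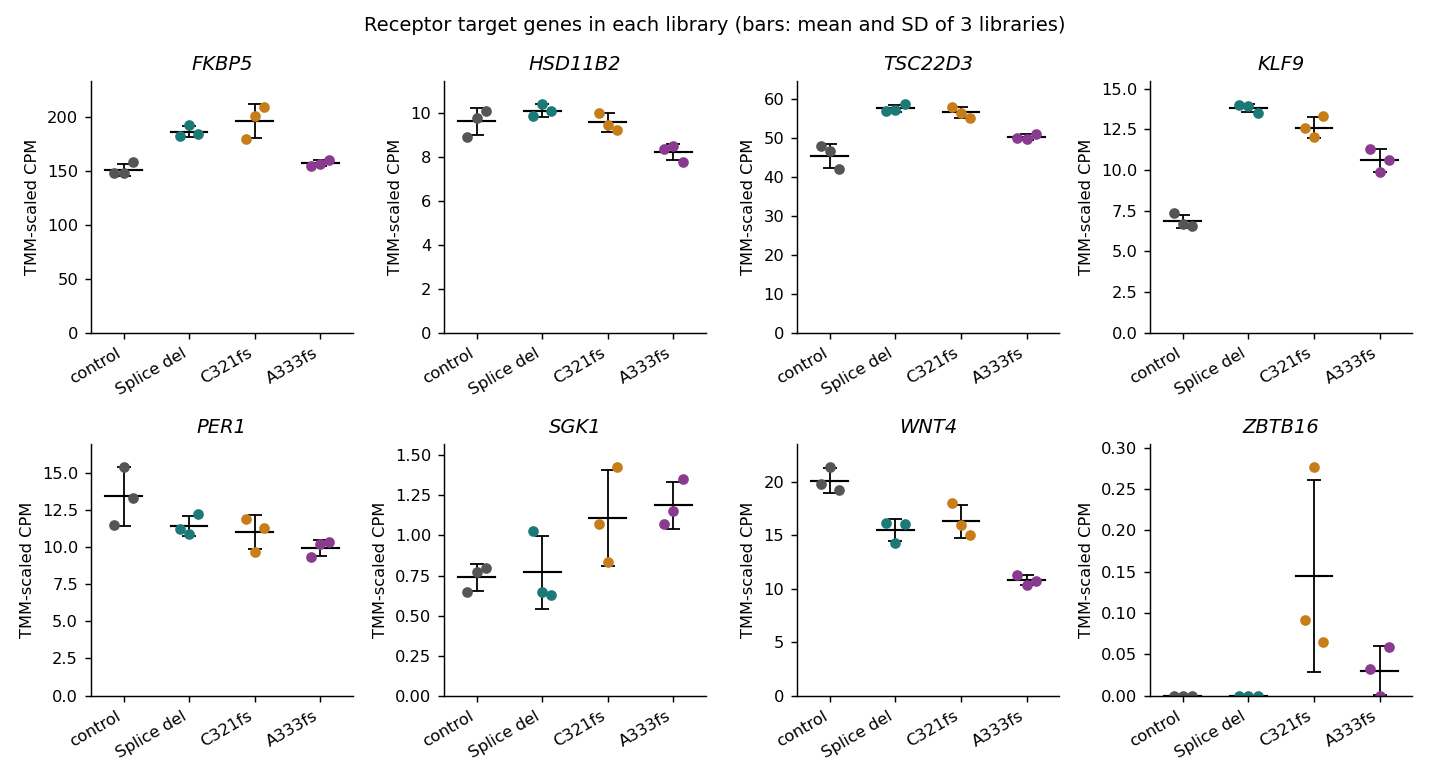
TMM-scaled CPM (vertical axis, linear and from 0, a different scale in each panel) of 8 target genes in the 12 libraries, by line. Points are libraries and bars the mean and SD of 3; all 9 mutant libraries lie above control for KLF9 and TSC22D3 and below it for WNT4, and TNFSF11, not drawn, is at 0 in each library.

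FKBP5 (chromosome 6 from 35573585 to 35728583 of hg38, minus strand) encodes an Hsp90 co-chaperone that lowers the affinity of the receptor for hormone, a classic negative feedback. Control libraries had 148, 148 and 158 CPM, Splice del libraries 182, 192 and 184, C321fs libraries 179, 201 and 209, and A333fs libraries 154, 156 and 160. Splice del and C321fs libraries thus lay above all control libraries, while A333fs libraries overlapped them. The log2 fold change was 0.30 for Splice del (SE 0.06, adjusted p = 0.00053 from edgeR) and 0.38 for C321fs cells (SE 0.06, adjusted p = 0.00011), both short of the fold limit, and 0.05 for A333fs cells (adjusted p = 0.49). A333fs cells had less than C321fs cells (log2 fold change -0.33, adjusted p = 0.00064) and than Splice del cells (-0.25, adjusted p = 0.0066). With the trend over GC content removed (the exons of FKBP5 have 42.4% GC), the values against control were 0.06 for Splice del (adjusted p = 0.21), 0.23 for C321fs (adjusted p = 0.00015) and -0.21 for A333fs cells (adjusted p = 4e-04), so the direction in A333fs cells turned. The difference between A333fs and C321fs cells was then -0.43 (adjusted p = 9.9e-08). An exon of FKBP5 shares 76 bases with LOC285847 on the same strand.

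HSD11B2 (chromosome 16 from 67431133 to 67437551, plus strand) encodes the enzyme that turns cortisol into inactive cortisone and so limits the ligand of the glucocorticoid receptor. It was measured at 9.61 ± 0.625 CPM (SD, n = 3) in control, 10.1 ± 0.275 with Splice del, 9.57 ± 0.423 with C321fs and 8.21 ± 0.378 with A333fs. A333fs libraries, at 8.36, 8.49 and 7.78 CPM, were the lowest and did not overlap the control libraries at 8.92, 9.78 and 10.1. The log2 fold changes of 0.07, -0.01 and -0.23 (adjusted p = 0.46, 0.96 and 0.023 from edgeR) did not pass. With the trend removed (exons with 63.4% GC) they were 0.28, 0.15 and 0.16 (adjusted p = 0.0052, 0.13 and 0.12). The Splice del value then passed the adjusted p but stayed under the fold limit.

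KLF9 (chromosome 9 from 70384597 to 70414657, minus strand) encodes a Krüppel-like zinc finger factor that responds to both hormones and works with the progesterone receptor. It had the largest fold change against control of the 7 tested genes in Splice del and C321fs cells, while in A333fs cells WNT4 and SGK1 had larger ones. Control libraries had 7.33, 6.70 and 6.56 CPM, Splice del libraries 14, 13.9 and 13.5, C321fs libraries 12.6, 12.0 and 13.3, and A333fs libraries 11.3, 9.89 and 10.6. Each of the 9 mutant libraries lay above each control library, as for 15.7% of all tested genes. The level was 2.02-fold higher for Splice del (log2 fold change 1.01, SE 0.08, adjusted p = 1.4e-07 from edgeR), 1.84-fold higher for C321fs (0.88, SE 0.08, adjusted p = 1.7e-06) and 1.54-fold higher for A333fs cells (0.63, SE 0.08, adjusted p = 1.2e-05). Of all tested genes, 1.6% were called up in all 3 lines. The A333fs value lies near the fold limit: without A333fs replicate 1 it was 0.58 and not called. A333fs cells had less KLF9 than Splice del cells (log2 fold change -0.38, adjusted p = 0.0022), under the fold limit, and the difference from C321fs cells was -0.25 (adjusted p = 0.024). With the trend removed (exons with 46.2% GC) the values against control were 0.84, 0.77 and 0.44, and the last was no longer called although its adjusted p was 0.00032.

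TSC22D3 (chromosome X from 107713222 to 107775787, minus strand) encodes GILZ, a leucine zipper protein that restrains NF-kappaB and AP-1 and is among the most direct glucocorticoid targets. Control libraries had 47.8, 46.6 and 41.9 CPM, Splice del libraries 57.0, 57.2 and 58.7, C321fs libraries 58.0, 56.5 and 55.2, and A333fs libraries 49.9, 49.6 and 51.1. All 9 mutant libraries lay above control, with A333fs libraries between control and the other mutants. The log2 fold change was 0.34 for Splice del (SE 0.06, adjusted p = 0.00013 from edgeR), 0.32 for C321fs (SE 0.06, adjusted p = 0.00036) and 0.14 for A333fs cells (SE 0.06, adjusted p = 0.042), all under the fold limit. With the trend removed (exons with 55.0% GC) it was 0.44, 0.42 and 0.32, with adjusted p = 2.2e-07, 1e-06 and 1.9e-05. In all 3 lines its difference from control was thus larger after this removal, while that of KLF9 was smaller.

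PER1 (chromosome 17 from 8140470 to 8152435, minus strand) encodes a period protein of the circadian clock and is also switched on directly by glucocorticoids. Control libraries spread widely at 11.5, 15.4 and 13.3 CPM. Splice del libraries had 11.2, 10.9 and 12.2, C321fs libraries 11.9, 9.68 and 11.3, and A333fs libraries 9.29, 10.2 and 10.3. The A333fs libraries alone lay below all control libraries, and the log2 fold change there was -0.43 (SE 0.11, adjusted p = 0.0023 from edgeR), under the fold limit. Without control replicate 2, the highest library, it was -0.32 (adjusted p = 0.019), and without A333fs replicate 1 it was -0.39 (adjusted p = 0.012). In Splice del and C321fs cells it was -0.23 (adjusted p = 0.072) and -0.29 (adjusted p = 0.032). The exons of PER1 have 62.7% GC, and with the trend removed the 3 values were -0.05, -0.09 and -0.04 (adjusted p = 0.61, 0.37 and 0.71).

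ZBTB16 (chromosome 11 from 114059709 to 114250675, plus strand) encodes PLZF, a BTB zinc finger repressor that is strongly induced by both hormones in responsive cells. The raw counts were 0, 0 and 0 in control and 0, 0 and 0 in Splice del libraries. In C321fs libraries they were 3, 8 and 2, and in A333fs libraries 1, 0 and 2. Over the 3 libraries of C321fs this is 0.14 CPM (95% exact Poisson interval 0.0748 to 0.24), and in A333fs cells 0.0311 (0.00642 to 0.0909). The zero counts of control and of Splice del cells allow up to 0.0412 and 0.0364 CPM by the same interval. ZBTB16 was left out of the main test for its low counts. With all counted genes kept, the adjusted p of C321fs against control was 0.0076 from edgeR and that of A333fs against control 0.22, and no fold change is given against lines at 0. These intervals cover counting error only.

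SGK1 (chromosome 6 from 134169246 to 134318058, minus strand) encodes the serum and glucocorticoid regulated kinase, which acts on ion transport and cell survival. Control libraries had 0.645, 0.770 and 0.799 CPM, Splice del libraries 1.03, 0.650 and 0.627, C321fs libraries 1.07, 0.832 and 1.43, and A333fs libraries 1.07, 1.15 and 1.35. C321fs and A333fs libraries lay above control and Splice del libraries overlapped it. With 18 to 46 fragments per library the error was large. The log2 fold changes were 0.09 (SE 0.27), 0.59 (SE 0.26) and 0.69 (SE 0.25), with adjusted p = 0.80, 0.066 and 0.028 from edgeR, and none was called. With the trend removed (exons with 48.6% GC) they were -0.01, 0.54 and 0.60. Scaling by library totals without TMM factors, which puts the median of all genes at 0.16 in A333fs cells in place of 0.01, gave 0.84 there with adjusted p = 0.0094, past both limits.

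TNFSF11 (chromosome 13 from 42562736 to 42608013, plus strand), the gene of RANKL, had no fragment in any of the 12 libraries. A count of 0 allows up to 0.0774 to 0.104 CPM in a single library (3 counts), so a transcript below that level could go uncounted in it. This bound holds for each library alone, and the zeros of all 12 libraries together allow less. The receptor for RANKL, TNFRSF11A, was expressed, and its values are given with its pathway.

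WNT4 (chromosome 1 from 22117305 to 22143026, minus strand) encodes the secreted ligand through which progesterone acts on neighboring cells in the gland. Control libraries had 19.8, 21.4 and 19.2 CPM and Splice del libraries 16.1, 14.3 and 16. C321fs libraries had 18, 15.9 and 15.0 and A333fs libraries 11.3, 10.3 and 10.7. All 9 mutant libraries lay below control, as for 19.3% of all genes, and the A333fs libraries lay below every other library. In A333fs cells the level was 1.87-fold lower (log2 fold change -0.90, SE 0.08, adjusted p = 5.7e-07 from edgeR), and leaving out single libraries gave values from -0.93 to -0.83. In Splice del and C321fs cells the log2 fold change was -0.38 (SE 0.08, adjusted p = 0.0011) and -0.30 (SE 0.08, adjusted p = 0.006), under the fold limit. With the trend removed (exons with 57.7% GC) the values were -0.26, -0.17 and -0.64, and A333fs cells were still called.

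**Figure D3:**
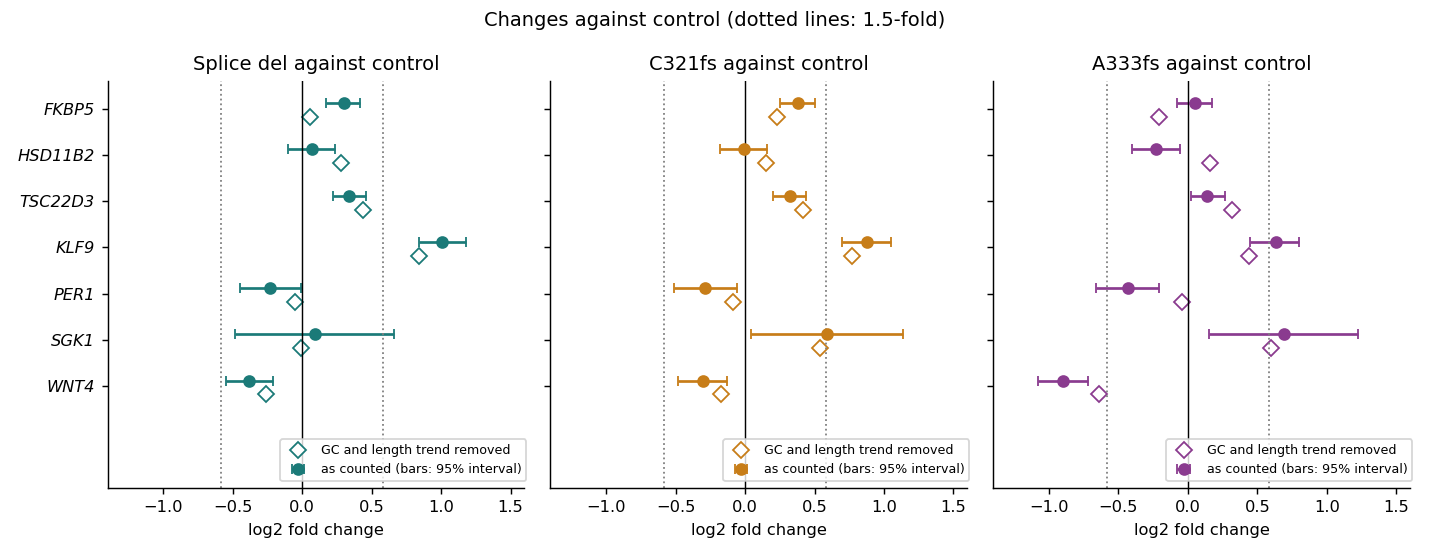
Log2 fold change against control (horizontal axis) of the 7 tested target genes in the 3 mutant lines, as counted (filled points, bars 95% intervals) and with the trend over GC content and exon length removed (open diamonds); dotted lines mark 1.5-fold. KLF9 lies to the right in all panels (1.01, 0.88 and 0.63), WNT4 lies farthest left in A333fs cells (-0.90), and the diamonds of PER1 lie close to 0.

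The mutant lines were next tested against each other, to see whether the truncations left the receptor targets at different levels. No gene of the 7 was called between Splice del and C321fs cells, where 2.64% of all genes were called, the smallest adjusted p from edgeR was 0.22, for SGK1, and 0 of 7 passed an unadjusted p of 0.05 or were called by DESeq2. Between A333fs and C321fs cells 1 of 7 was called, against 5.55% of all genes: WNT4 was 1.51-fold lower in A333fs cells (log2 fold change -0.60, SE 0.09, adjusted p = 8.8e-05). This call sits on the fold limit, and it was lost without C321fs replicate 1 (-0.52) and without A333fs replicate 2 (-0.53), while the adjusted p stayed below 0.01. DESeq2 called 0 of 7 in this pair, and with the trend removed WNT4 had -0.47 and was not called. Between A333fs and Splice del cells 0 of 7 were called, against 3% of all genes. DESeq2 called 0 of them as well, although 6 of 7 had an unadjusted p below 0.05 in edgeR. By the adjusted p alone 3 genes passed there, KLF9, FKBP5 and WNT4, all lower in A333fs cells, where 11.9% of all genes passed. The log2 fold change of WNT4 in this pair was -0.52 (adjusted p = 0.00051 from edgeR). In 6 of the 7 genes the A333fs libraries lay wholly below those of Splice del, and SGK1 lay above them. Such separation was seen for 46.3% of all genes in either direction. The differences of PER1 and HSD11B2 in this pair went from -0.20 and -0.30 to 0.01 and -0.12 with the trend removed, and those of KLF9, FKBP5 and WNT4 were -0.40, -0.27 and -0.39. The share of all genes with an unadjusted p below 0.05 was not counted, here or for the lists below. Against control, 36.8% to 47.4% of all genes passed even an adjusted p of 0.01.

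None of the 4 receptor genes PGR, NR3C1, NR3C2 and ESR1 was called by edgeR or DESeq2 against control. An unadjusted p below 0.05 was found for 3, 2 and 2 of them. By edgeR's adjusted p alone 3, 1 and 1 passed, all upward, beside 41.1%, 36.8% and 47.4% of all genes. NR3C1 passed with every mutant (adjusted p = 0.007, 0.001 and 0.0087). NR3C2 (log2 fold change 0.53, adjusted p = 0.0082) and ESR1 (0.23, adjusted p = 0.0047) passed with Splice del alone. Trend removal left these 2 at 0.31 and 0.1 (adjusted p = 0.091 and 0.035). NR3C1 then passed in no line (adjusted p = 0.72, 0.038 and 0.76 from edgeR). PGR, the progesterone receptor, was at 1110 ± 92.4 CPM (SD, n = 3) in control, 1090 ± 20.2 with Splice del, 937 ± 110 with C321fs and 1050 ± 78.6 with A333fs, and NR3C1, the glucocorticoid receptor, at 9.88 ± 0.67, 12.5 ± 1.40, 13.6 ± 1.13 and 12.3 ± 0.597 CPM. Per exon length this was 84.9 RPKM for PGR and 1.04 RPKM for NR3C1 in control cells. The log2 fold changes of PGR were -0.02, -0.24 and -0.07 as counted and -0.26, -0.40 and -0.33 with the trend removed (adjusted p = 1.1e-05, 2.2e-07 and 1.3e-06 from edgeR), and those of NR3C1 were 0.34, 0.46 and 0.32 as counted and 0.04, 0.24 and 0.04 with it removed.

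Among 15 chaperones of the receptor complex, 1 was called with Splice del, 0 with C321fs and 1 with A333fs (edgeR). This stood beside 10.7%, 6.88% and 12.3% of all genes. The called gene was FKBP4, the co-chaperone that competes with the FKBP5 protein for the receptor and helps it into the nucleus. In C321fs cells, where FKBP4 was 1.49-fold lower and so just missed the limit, 10 of the 15 had an unadjusted p below 0.05 and DESeq2 called 1. FKBP4 fell from 1840, 2030 and 1760 CPM in control to 1160, 1160 and 1230 in Splice del and 1200, 1150 and 1230 in A333fs libraries, and C321fs libraries had 1270, 1270 and 1230. All mutant libraries lay below control. Its log2 fold changes were -0.67, -0.58 and -0.66 (adjusted p = 3.6e-07, 3.2e-06 and 3.5e-07) and -0.68, -0.55 and -0.65 with the trend removed. Of 13 coregulators, 2 were called up and 2 down for Splice del, 2 and 2 for C321fs, and 1 and 1 for A333fs cells, beside 10.7%, 6.88% and 12.3% of all genes called in either direction. The counts were 1 and 1, 0 and 0, and 1 and 0 with the trend removed. PPARGC1A, the PGC-1alpha coactivator, rose in all 3 lines from 2.11 CPM to 5.47, 3.21 and 7.86 (log2 fold changes 1.38, 0.60 and 1.90), but its C321fs call did not hold with single libraries left out (0.46 without C321fs replicate 3) or with the trend removed (0.35). PELP1, a scaffold of nuclear receptors, fell in all 3 (-0.75, -0.69 and -0.80), but with the trend removed (-0.59, -0.52 and -0.45) it was called with Splice del alone. The corepressor gene NRIP1 rose in Splice del (0.92) and C321fs cells (0.86), and PRMT1 fell in Splice del cells (-0.69), and with the trend removed (0.58, 0.56 and -0.51) these 3 calls were lost. The acetyltransferase gene CREBBP was called down in C321fs cells (-0.61), a call lost without control replicate 3 (-0.55), without C321fs replicate 1 (-0.57) and with the trend removed (-0.42).

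Other targets of the glucocorticoid receptor were read from a list of 34 genes, 29 of which were tested. In Splice del cells 5 were called up and 0 down, in C321fs cells 5 and 0, and in A333fs cells 6 and 1, beside the 10.7%, 6.88% and 12.3% of all genes. The median log2 fold change of the list was 0.07, 0.06 and 0.01, beside 0.03, 0.02 and 0.01 over all genes. DDIT4, an inhibitor of mTORC1, rose in all 3 lines (0.77, 1.04 and 0.62), from 33.7 CPM to 57.7, 69.4 and 51.7, and its values were higher still with the trend removed (0.93, 1.17 and 0.88). Its A333fs call was lost without control replicate 3 (0.56). ANXA1, annexin A1, rose from 4.80 CPM to 8.31, 13.2 and 10.3 (0.79, 1.45 and 1.09), and BIRC3, an inhibitor of apoptosis, from 4.02 to 8.74, 9.64 and 7.23 (1.13, 1.26 and 0.85). The ANXA1 call in Splice del (0.54) and the BIRC3 call in A333fs cells (0.54) were lost with the trend removed. PDK4, the kinase that shuts off pyruvate dehydrogenase, rose in Splice del and C321fs cells (1.1 and 1.15). In A333fs cells it had 0.48 and was called below both other mutants, at -0.67 against C321fs (adjusted p = 0.00014, edgeR) and -0.61 against Splice del cells (adjusted p = 0.00049). SERPINA3, a serine protease inhibitor, rose in Splice del (1.34) and A333fs cells (1.33), ANGPTL4 in C321fs cells (0.61, 0.52 without C321fs replicate 1), and the metallothionein gene MT1X in A333fs cells (1.06). ZFP36, an RNA-destabilizing protein, fell in A333fs cells (-0.67, or -0.44 and not called with the trend removed).

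Of 22 other progesterone targets, 18 were tested, and 1 was called up and 2 down for Splice del, 1 and 4 for C321fs, and 1 and 4 for A333fs cells, beside 10.7%, 6.88% and 12.3% of all genes. The median was -0.06, 0.06 and -0.16, beside 0.03, 0.02 and 0.01 over all genes. MYC fell in all 3 lines, from 123, 138 and 124 CPM in control to 62.0, 61.7 and 65.7 with Splice del, 82.5, 81.8 and 80.1 with C321fs and 67.1, 67.4 and 68.4 with A333fs (log2 fold changes -1.02, -0.66 and -0.92, or -0.95, -0.58 and -0.80 with the trend removed, the middle one then under the fold limit). FASN, fatty acid synthase, also fell in all 3 (-0.73, -1.07 and -0.93, or -0.52, -0.82 and -0.45 with the trend removed, the middle one then the only call). MUC1, a mucin of luminal cells, fell in C321fs (-0.95) and A333fs cells (-0.71, or -0.43 and not called with the trend removed), as did IRS2 (-0.63 and -0.68, not called without single libraries or with the trend removed). AREG, the EGF family ligand amphiregulin, rose in C321fs cells, at 38.1, 38.9 and 34.2 CPM against 20.9, 19.7 and 19.0 in control (0.90, adjusted p = 2.3e-07 from edgeR). In Splice del and A333fs cells AREG had -0.06 and -0.24 and was called below C321fs cells. STAT5A rose in Splice del (1.05) and A333fs cells (1.06), and was not called without control replicate 1 (0.84 and 0.85).

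**Figure D4:**
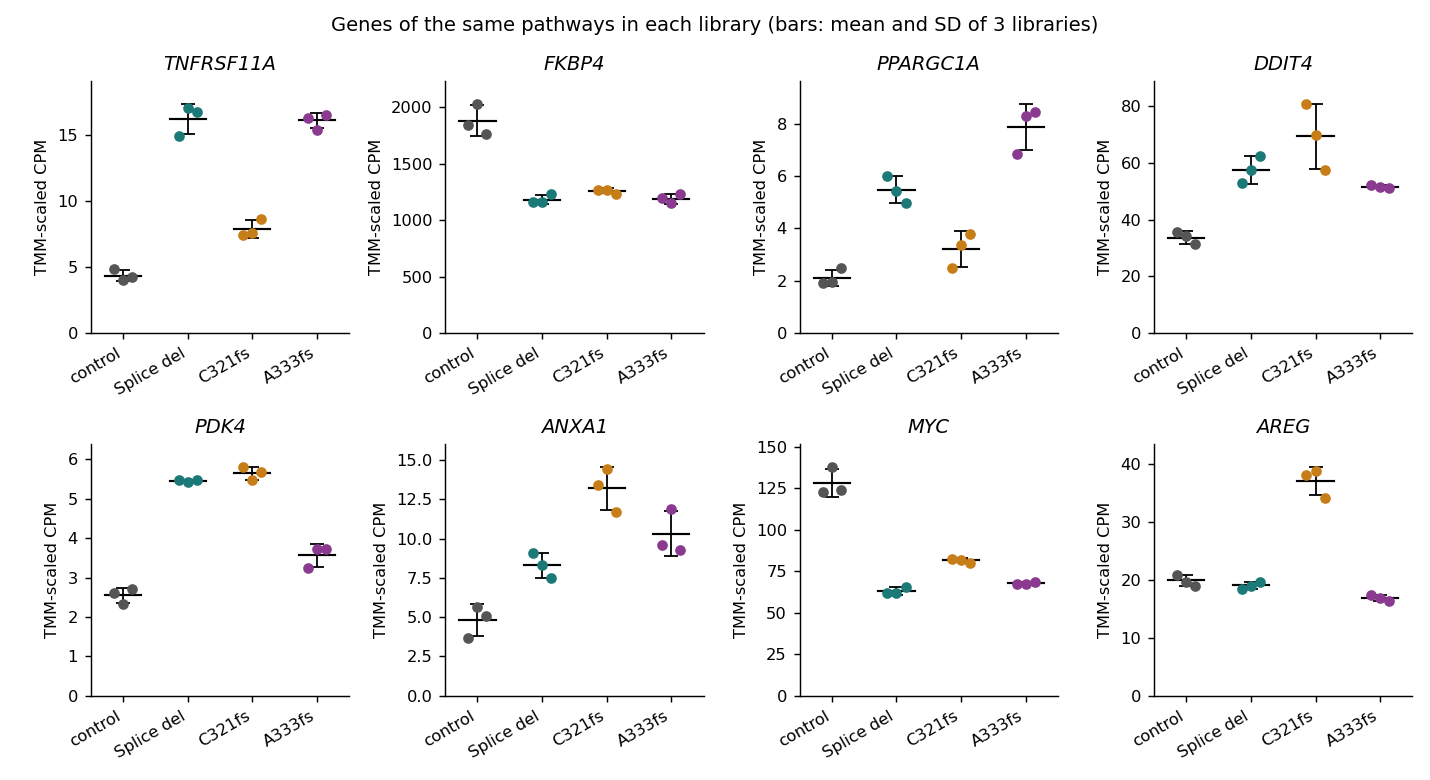
TMM-scaled CPM (vertical axis, linear and from 0, a different scale in each panel) of 8 genes of the same pathways in the 12 libraries, by line; points are libraries and bars the mean and SD of 3. TNFRSF11A is near 16 in Splice del and A333fs, near 8 in C321fs and near 4 in control cells, FKBP4 and MYC are lower in every mutant library than in control, and AREG is high in C321fs cells.

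For the paracrine ligands, the receiving side was read from lists of RANK and WNT signaling. Of 12 tested RANK pathway genes, 1 was called up and 0 down in each of the 3 lines, beside 10.7%, 6.88% and 12.3% of all genes. The called gene was TNFRSF11A, the receptor for RANKL. TNFRSF11A rose from 4.82, 3.98 and 4.24 CPM in control to 14.9, 17 and 16.7 with Splice del, 7.40, 7.53 and 8.62 with C321fs and 16.3, 15.4 and 16.5 with A333fs. The level was 3.72-fold higher for Splice del (log2 fold change 1.90, SE 0.10, adjusted p = 1.1e-09 from edgeR), 1.81-fold for C321fs (0.85, SE 0.10, adjusted p = 1.3e-05) and 3.70-fold for A333fs cells (1.89, SE 0.10, adjusted p = 7.9e-10), and 1.85, 0.86 and 1.86 on the log2 scale with the trend removed. C321fs cells were called below both other mutants. The ligand gene TNFSF11 was at 0 in the same libraries, and so was TNFRSF11B, the decoy receptor for RANKL.

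Of 23 tested WNT pathway genes, 3 were called up and 0 down for Splice del, 0 and 0 for C321fs, and 2 and 2 for A333fs cells (edgeR), beside 10.7%, 6.88% and 12.3% of all genes. In C321fs cells 16 had an unadjusted p below 0.05 and DESeq2 called 0. DKK1, a secreted inhibitor of WNT receptors, rose in Splice del (1.08) and A333fs cells (1.2) and had 0.49 in C321fs cells. LGR4, the R-spondin receptor, rose in the same lines (0.88 and 0.73, and 0.57 in C321fs cells), the second not called with the trend removed (0.42). LRP5, a WNT coreceptor, fell in A333fs cells (-0.66, or -0.28 with the trend removed), and so did the transcription factor gene TCF7 (-0.74), not called without control replicate 2 (-0.62) or with the trend removed (-0.50). AXIN2, which reports WNT activity, had below 1 CPM in every line and was called up in Splice del cells (1.64), a call lost without single libraries.

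Relatives of the receptor targets and partners of their products are given by their calls, beside the same shares of all genes (10.7%, 6.88% and 12.3%). Of 13 other Krüppel-like factor genes, 0 were called up and 1 down for Splice del, 0 and 0 for C321fs, and 1 and 2 for A333fs cells (edgeR), with 6 at an unadjusted p below 0.05 and 0 called by DESeq2 in C321fs cells. KLF16 fell in Splice del (-0.62) and A333fs cells (-0.93), KLF10 fell in A333fs cells (-0.60) and KLF5 rose there (0.71), so no other member of the family was called up in all 3 lines as KLF9 was. Both KLF16 values (-0.39 and -0.45) and that of KLF5 (0.53) were not called with the trend removed, and KLF10 was not called without control replicate 2 (-0.55), without A333fs replicate 2 (-0.55) or under 6 of 12 alternatives. None of the 3 other TSC22 family genes was called by edgeR or DESeq2, and 1, 3 and 2 of them had an unadjusted p below 0.05. Of 12 other FKBP genes, with FKBP4 among them, FKBP7 was called up in Splice del (0.91), FKBP14 up in Splice del and C321fs (0.60 and 0.63) and FKBP8 down in A333fs cells (-0.60), and with the trend removed these were 0.57, 0.26, 0.32 and -0.16. Of 10 tested BTB zinc finger genes ZBTB18 was called up in Splice del and C321fs (1.1 and 1.00) and ZBTB7A down in A333fs cells (-0.64). These were 0.84, 0.77 and -0.27 and not called with the trend removed, and each ZBTB18 call was also lost in 4 of 6 fits without 1 library. Beside PER1, 17 clock genes were tested, and DBP was called up in Splice del (0.62), and NR1D1 (-0.64) and CSNK1E (-0.89) down in A333fs cells, both lost with the trend removed (-0.33 and -0.62). Among 13 tested substrates and relatives of the SGK1 kinase, ATP1B1 of the sodium pump rose in Splice del (0.92) and A333fs cells (0.91, or 0.58 and not called with the trend removed), SCNN1B of the epithelial sodium channel fell in A333fs cells (-1.07), and NDRG1 rose in C321fs cells, at 8.31, 9.68 and 4.5 CPM against 1.80, 2.21 and 1.35 in control (2.06). In A333fs cells NDRG1 was not called in the main fit but was called up under 9 of 12 alternatives (0.88 to 1.11). Of 7 tested steroid enzyme genes, HSD11B2 included, SULT2B1 fell in Splice del (-0.87) and A333fs cells (-1.0), and AKR1C3, whose near copies AKR1C1 and AKR1C2 were not tested, was called up in both (1.85 and 2.44) from 0.112 CPM, a call lost for Splice del in 4 of 6 fits without 1 library (1.57 to 1.90). Calls of KLF5, KLF16 (Splice del), FKBP8, FKBP14, ZBTB7A, DBP, NR1D1 and CSNK1E were likewise lost without at least 1 library. Cell type markers aside, 73 calls of 42 listed genes were made against control. Of these, 23 were lost without at least 1 library and 32 with the trend removed.

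The 2 genes most like each target were found by Pearson's r of log2 CPM over the 12 libraries, with no test, since the points share lines, depth and base composition. WNT4 went most closely with DGKZ (r = 0.987) and RHOV (0.984), FKBP5 with HELZ2 (0.978) and SEMA3C (0.96), KLF9 with DNAJB11 (0.972) and LGALS8 (0.967), and TSC22D3 with RNF130 (0.96) and AGBL2 (0.955). HSD11B2 went with FBXO41 (0.957) and MAPK11 (0.948), PER1 with MBOAT7 (0.954) and LMF2 (0.953), and SGK1, with the widest counting error, with INTS2 (0.91) and NNAT (0.878). Among the targets themselves the closest pair was KLF9 and TSC22D3 (r = 0.93).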

How the data were processed

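RNA-seq counts of 12 libraries were processed. The authors trimmed reads (Trimmomatic) and, after alignment to hg38, counted fragments per gene; the deposited values are raw counts, not normalized and not pooled. Per the file headers, featureCounts 1.6.4 was run on paired reads without a strand option, so antisense reads count to a gene, and fragments that map to several places or genes were left out by default. The processing notes name HISAT2, while the header points to STAR output. ChIP-seq was not analysed here.

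Genes were filtered with edgeR's filterByExpr, scaled by TMM and fitted in 1 model of 12 libraries (glmQLFit and glmQLFTest, edgeR 4.0.16, R 4.3.3), with 1 coefficient per line and Benjamini-Hochberg adjustment over 14789 genes. The 6 pairs of lines were compared, with an F-test for any difference. A common dispersion of 0.00453 was estimated, or 6.73% as a coefficient of variation. RPKM is the CPM divided by the deposited exon length. Motifs were searched in RefSeq windows. The procedure was tested on simulated data. Alternatives were other scalings, filters and thresholds, DESeq2 1.42.0, a replicate block, loess removal (span 0.3) of a trend over GC content and exon length (fitted on unlisted genes), and leaving out each library. Named were all 9 targets, 4 steroid receptors and the called genes of lists written from general knowledge, at most 5 per list and comparison. LCN2 and others beyond that limit are in the counts only. The targets, lists and alternatives were chosen with earlier results of these data known. Some listed genes are not reported here.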

Additional observations from a re-analysis of the deposited data

Results flagged for a closer look

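The 3 truncations were set against each other for the receptor targets and for the named genes of their pathways, and a gene is given here where 2 mutant lines differed past both limits in edgeR's fit (adjusted p below 0.01 and a fold change above 1.5). These genes and pairs were selected for that difference. Of the receptor targets, WNT4 alone met this, at -0.60 on the log2 scale in A333fs against C321fs cells, a call lost in 2 of 6 fits without 1 library and under 6 of 12 alternatives.

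C321fs cells stood apart from both other mutants for several genes. TNFRSF11A differed by 1.04 in Splice del and 1.03 in A333fs against C321fs cells, PPARGC1A by 0.78 and 1.30, SERPINA3 by 1.11 and 1.09, and DKK1 by 0.59 and 0.71, all higher outside C321fs cells. AREG differed by -0.96 and -1.14 and NDRG1 by -1.82 and -1.17, both higher in C321fs cells. In Splice del against C321fs cells ANXA1 had -0.66 and MUC1 0.59. With 1 library left out, the differences between Splice del and C321fs cells were no longer called in 3 of 6 fits each for SERPINA3, DKK1, ANXA1 and MUC1 and in 2 of 6 for PPARGC1A, while those of TNFRSF11A, AREG and NDRG1 were called in all 6.

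A333fs cells stood apart for others. PDK4 had -0.67 against C321fs and -0.61 against Splice del cells, and MT1X 1.04 and 0.92. Against C321fs cells ANGPTL4 had -0.73, SCNN1B -0.73 and KLF10 -0.67, and against Splice del cells KLF5 had 0.67. The KLF5 difference was not called in 5 of 6 fits without 1 library (0.53 to 0.73) or under 4 of 12 alternatives, and that of PDK4 against Splice del cells was not called in 1 of 6. With the GC and length trend removed, ANGPTL4 and SCNN1B were not called. The lines are single pools, so a difference between mutants and one between pools cannot be told apart.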

How the results depend on the processing

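Under the alternatives, 731 of 756 log2 fold changes of the tested targets kept their side of the limits, 13 passed in addition and 12 no longer did; 21 changed sign, none of them called. KLF9 was called up in Splice del cells and WNT4 down in A333fs cells under every alternative. The A333fs against C321fs call of WNT4 sat on the fold limit: 0 targets were called there with RLE scaling, upper-quartile scaling, no filter, the test against a fold change of 1.5, the GC and length trend removed, or DESeq2, 2 with no minimum fold change, and 0 to 1 with a library left out. Against control, C321fs cells had 2 calls with no filter (ZBTB16 added), 4 with no minimum fold change and 0 in the test against 1.5-fold. Splice del cells had 4 with no minimum fold change. A333fs cells had 1 in the test against 1.5-fold and 1 with the trend removed, 3 with no minimum fold change, at an adjusted p of 0.05 or by library totals, and 1 to 2 with a library left out. A333fs against Splice del cells had 3 with no minimum fold change. At an adjusted p of 0.05, a difference among lines was called for 7 of 7 tested targets. The share of all genes at that threshold was not counted, and at 0.01 it was already 56.2%. Upper-quartile scaling puts the median of all genes at 0.12, 0.11 and 0.12 in the 3 mutants, and library totals at 0.22, 0.19 and 0.16. With the trend removed, calls over all genes went from 1588 to 1032 in Splice del cells. The replicate numbers did not pair the samples (18 pairs, correlations of deviations -0.123 to 0.165); a fit with the replicate block called 1561 genes in place of 1588 in Splice del against control and changed no call of a target. Ranking by RPKM in place of CPM put TSC22D3 above FKBP5. SGK1 and ZBTB16 are limited by their counts.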
